A study of Homo sapiens with 4 samples.

Results

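The genes described here are 60 genes of ribosome biogenesis and the nucleolus. They were listed by name for what their proteins do, with earlier results of these data known. The functions listed were ribosomal RNA processing, small nucleolar ribonucleoprotein (snoRNP) cores and assembly of the 60S and 40S subunits. All 60 were found among the 64252 Ensembl genes of the count table through their GENCODE symbol, and all 60 passed the filter on low counts. Cells labelled NB4, an acute promyelocytic leukemia line, had been treated for 24 h with 8 μM dBET1 (2 libraries) or with the solvent DMSO as control (2 libraries). The compound dBET1 is a degrader that joins a ligand of the BET bromodomain proteins to a ligand of cereblon, a substrate adaptor of an E3 ubiquitin ligase. Every library came from the same line, a single model without donors, and nothing in the labels says whether replicates 1 and 2 were separate cultures, so the p-values measure the spread between these libraries, which may be technical.

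Ribosomes are built in the nucleolus, where RNA polymerase I copies the ribosomal DNA into a long precursor. Box C/D and box H/ACA snoRNPs guide methylation and pseudouridylation of that precursor, the small subunit processome folds and cuts the part that becomes the 40S subunit, and a succession of other factors matures the 60S subunit. In growing leukemia cells the pathway is very active, and the transcription factor MYC is known to raise many of its genes.

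The libraries held 28019956 to 34685645 counts each. Levels are given in CPM, per-million counts after the library totals were scaled with TMM factors (0.918 to 1.08), and they are relative, since no added standard gives RNA per cell. In bulk RNA, fewer cells of a type and less RNA per cell cannot be told apart. The labelled cell type was checked against its markers. MPO, AZU1, PRTN3, ELANE and CTSG, which encode granule proteins of promyelocytes, together had 17 and 15 counts with DMSO and 55 and 25 with dBET1, with ELANE and CTSG at 0 in every library. The 6 erythroid markers GATA1, KLF1, HBG1, HBG2, ALAS2 and EPOR summed to 3710.0 and 4521 CPM with DMSO and to 2535 CPM in each dBET1 library, and 5 of the 6 fell. The T cell markers CD3D, CD3E and CD3G had 1152 and 1147 counts with DMSO and 409 and 383 with dBET1, with CD3E at 0 to 2, and of the B cell markers CD79A had 8 to 19 counts and MS4A1 was at 0 in every library. The line is therefore named below only as the libraries are labelled, and the part of these marker changes in the results was not tested.

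The E-box is the 6-base motif CACGTG, to which MYC and its partner MAX are known to bind. It was found in 24 of the 51 members with a promoter window, and the other 27 lacked it. The windows searched ran from 250 bases before to 50 bases after each annotated gene start in RefSeq (GRCh38.p14). The motif reads the same on both strands. The stretches below are 30 bases each, 5′ to 3′ on the strand of the gene, with the E-box in capitals. The first 4 are the members with the lowest log2 fold change (dBET1 against DMSO) among those with a box wholly before a start. In LYAR and DDX21 that is the later of the annotated starts, and the box lies after the earlier one. The other 6 have the lowest among the rest with a box across the start (RRP9) or after it. The set was chosen after the values were seen.
LYAR (chr4:4290068-4290097, reverse strand): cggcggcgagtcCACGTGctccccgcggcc
EBNA1BP2 (chr1:43172790-43172819, reverse strand): gatattgttggcCACGTGggatcgaagacc
IMP4 (chr2:130342682-130342711, forward strand): gcggtcctaagtCACGTGtgacattctgta
DDX21 (chr10:68956604-68956633, forward strand): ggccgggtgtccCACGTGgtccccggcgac
RRP9 (chr3:51941892-51941921, reverse strand): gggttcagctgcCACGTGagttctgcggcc
MRTO4 (chr1:19251807-19251836, forward strand): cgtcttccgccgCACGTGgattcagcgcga
MYBBP1A (chr17:4555340-4555369, reverse strand): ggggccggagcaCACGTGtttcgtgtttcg
GAR1 (chr4:109815781-109815810, forward strand): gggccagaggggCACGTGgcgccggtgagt
PES1 (chr22:30591880-30591909, reverse strand): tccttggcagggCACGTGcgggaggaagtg
LTV1 (chr6:143843354-143843383, forward strand): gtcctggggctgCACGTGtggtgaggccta
In GENCODE, 9 of these 10 boxes lie in or reach into a non-coding part of an exon of the gene. That of RRP9 does so with its last base only. The box of IMP4 lies in no exon of IMP4 but in one of the neighbour CCDC115. The box of EBNA1BP2 also lies in an exon of another gene, CFAP57.

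Windows were found for 51 members, and those of BOP1, DDX18, DDX52, MPHOSPH10, NOLC1, NOP58, RRP12, RRS1 and TCOF1 were not in the table. An E-box was present in 24 of the 51 members (47.1%), against 12.5% of 10976 tested genes and 8.77% of all 27305 genes with a window. Within 50 bases of a start on either side, a box was present in 23 members (45.1%) and in 5.28% of the tested genes. The windows had a median GC content of 64.0% in the members and 64.7% in the tested genes. The 24 members held 27 boxes at different distances from a start, of which 17 began after it and 10 before it, and 22 began between 20 bases before the start and the end of the window. By role, the E-box was present in 8 of 16 genes of 60S assembly, 7 of 15 of the small subunit processome, 3 of 5 of late 40S maturation, 3 of 8 of nucleolar organisation, 2 of 4 of the H/ACA core and 1 of 2 of the C/D core. It was present in 25 of 109 other genes of the pathway (22.9%) and in 4 of 62 cytosolic ribosomal protein genes (6.45%). The median log2 fold change was -1.30 in the 24 members with the motif and -1.09 in the 27 without it, a difference that was not tested. NOP16, PA2G4, PPAN and NHP2 were among the members without the motif. A match is a run of letters in the window and does not show that a factor was bound.

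**Figure D1:**
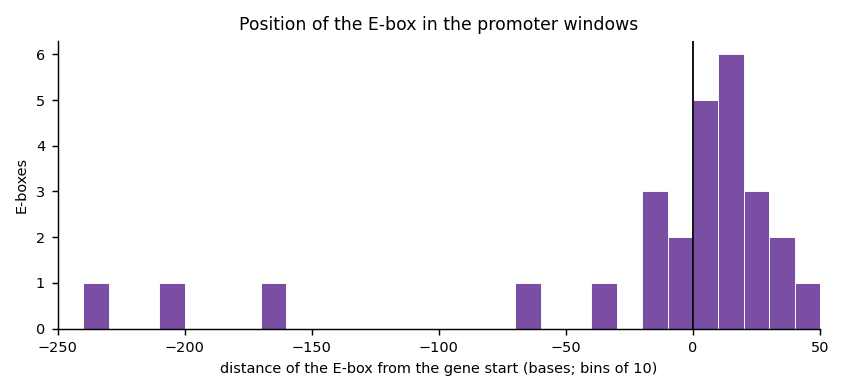
Distance of each E-box from the annotated gene start (horizontal axis, bases; bins of 10) and number of E-boxes (vertical axis) in the promoter windows of 51 ribosome biogenesis genes. Of the 27 boxes, 17 began after the start, and the box farthest before it was at -237.

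After dBET1, all 60 genes were lower than with DMSO at an adjusted p under 0.05 in the quasi-likelihood test of edgeR, adjusted by Benjamini-Hochberg over 17971 genes, and none was higher. Over all genes tested, 27.6% were lower and 28.0% were higher by the same rule. Of the 60, 41 fell by more than 2-fold (log2 fold change under -1), against 8.54% of all genes. In all 60 the higher dBET1 library was below the lower DMSO library, which held for 37.4% of all genes. The log2 fold change had a median of -1.21 over the 60 genes, a level 0.433 times that with DMSO, while the median of all genes tested was 0.048. Summed over the 60 genes, the level was 17051 and 17593 CPM with DMSO and 7651 and 7563 CPM with dBET1. The means were 17322 ± 383 and 7607 ± 62.3 CPM (SD, n = 2 each), a ratio of 0.439. DESeq2 called the same number lower, 60. With library totals in place of TMM factors the median over all genes was 0.26, not 0.048, and 58 members were lower, the exceptions being DDX52 (adjusted p = 0.253) and POLRMT (adjusted p = 0.0552). The median of the members minus that of all genes was -1.25 under either scaling. A change of scaling shifts all genes by nearly the same amount, so this difference could hardly change and is no check of the scaling.

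The size of the fall varied among the members, but differences between them were not tested. The standard errors rest on 2 libraries a group, whose spread may be technical. Log2 fold changes, given below ± 1 standard error, ran from -2.01 for NOP16 to -0.39 for DDX52, with an SD of 0.374 over the 60 genes, and the standard error of a single value had a median of 0.083. The members were abundant genes, 35 of them in the decile of tested genes with the highest mean level and 19 in the next decile. In the highest decile the median was -1.28 for the members and -0.41 for all its 1797 genes, of which 62.2% were lower. More than 2-fold falls were found in 26 of the 35 members and in 16.6% of that decile. In the next decile they were found in 12 of 19 members and in 11.9% of the genes.

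**Figure D2:**
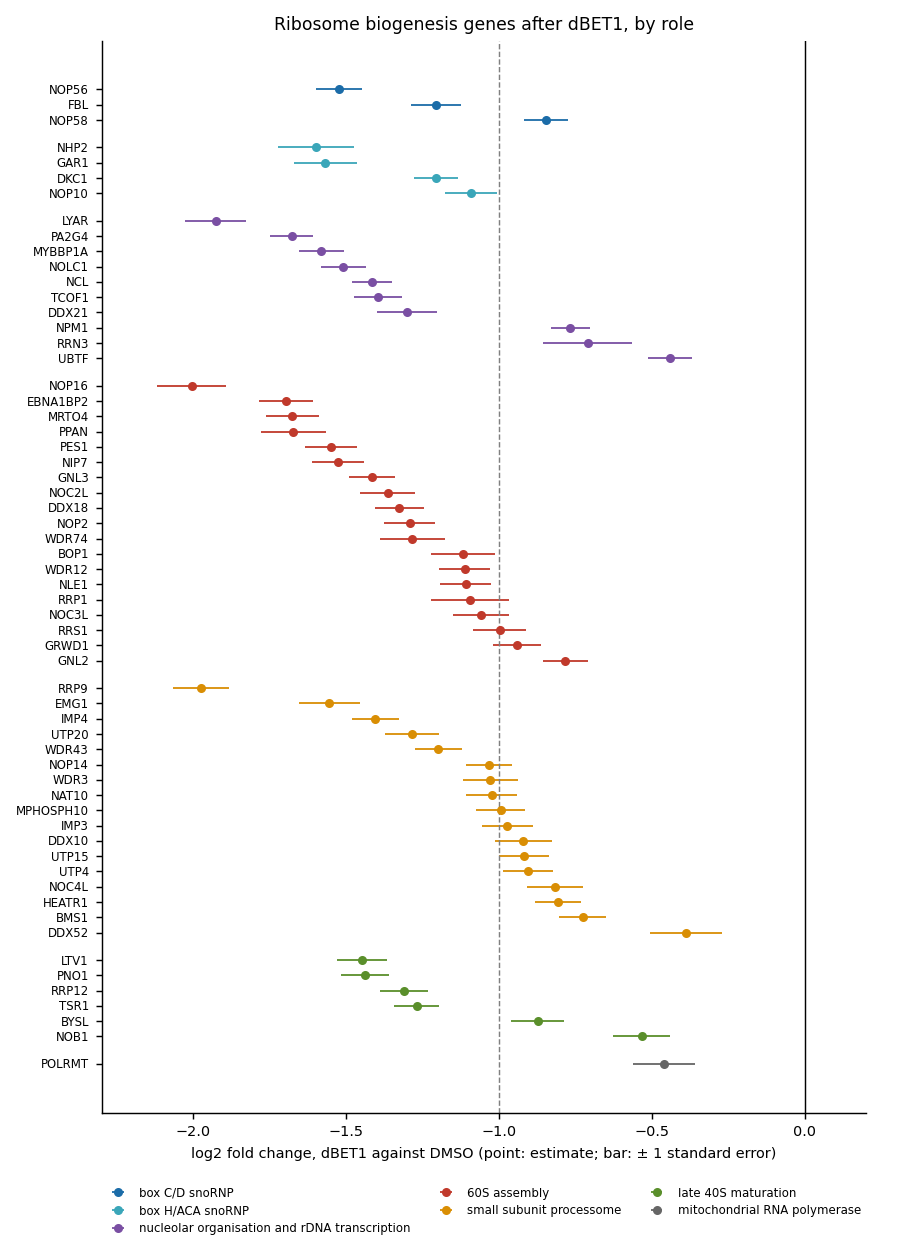
Log2 fold change of each of the 60 genes, dBET1 against DMSO (horizontal axis), grouped by role; points are edgeR estimates, bars 1 standard error to either side, and the dashed line marks a 2-fold fall. Every point lies left of 0, from -2.01 for NOP16 to -0.39 for DDX52, and 41 lie left of the dashed line.

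Of the 60 genes, 24 belong to the MYC target genes that the study itself picked from the same libraries, so their fall is not independent evidence of a direction. They had a median log2 fold change of -1.40, with 19 of 24 past the 2-fold limit. The 36 genes outside that set had a median of -1.08, and all 36 were lower, 22 of them by more than 2-fold. MYC itself had 445 and 465 CPM with DMSO and 278 and 269 CPM with dBET1. Its log2 fold change was -0.73 ± 0.0696, and 54 of the 60 genes had a lower value.

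The box C/D core is formed around guide RNAs by NOP56, NOP58 and FBL, the last of which is the methyltransferase fibrillarin. FBL had the highest level of the 3 per kb of exon, 247 CPM per kb with DMSO and 107 with dBET1. NOP56 had 741 and 795 CPM with DMSO and 259 and 275 CPM with dBET1. Its log2 fold change was -1.52 ± 0.0755 (edgeR, adjusted p = 1.03e-05). FBL had 495 and 562 CPM with DMSO and 229 CPM in each dBET1 library, a log2 fold change of -1.21 ± 0.0821. NOP58, the partner of NOP56 in the same particle, had 209 and 216 CPM with DMSO and 118 CPM in each dBET1 library. Its fall was the smallest of the 3, with a log2 fold change of -0.84 ± 0.0716. For all 3 genes both dBET1 libraries lay below both DMSO libraries, which held for 37.4% of all genes tested.

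The box H/ACA core holds the pseudouridine synthase dyskerin, encoded by DKC1, with NHP2, NOP10 and GAR1, and it is also part of telomerase. All 4 genes fell by more than 2-fold, with a median log2 fold change of -1.39. NHP2 had 131 and 153 CPM with DMSO and 51.8 and 42.0 CPM with dBET1 (log2 fold change -1.60 ± 0.125). GAR1 had 80.2 and 90.4 CPM with DMSO and 30.2 and 27.4 CPM with dBET1 (log2 fold change -1.57). DKC1 and NOP10 had smaller falls, and differences between the genes were not tested. NOP10 had 93.4 and 98.7 CPM with DMSO and 45.8 and 44.3 CPM with dBET1 (log2 fold change -1.09 ± 0.0842). DKC1 had 369 and 372 CPM with DMSO and 156 and 165 CPM with dBET1 (log2 fold change -1.21 ± 0.0715). In all 4 genes both treated libraries lay below both controls, as in 37.4% of all genes tested.

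The nucleolar organisers and factors of ribosomal DNA transcription numbered 10, and 7 of them fell by more than 2-fold. NPM1, a nucleolar chaperone whose gene is often mutated in acute myeloid leukemia, had the highest level per kb of exon of all 60 genes, 266 CPM per kb with DMSO and 157 with dBET1. NPM1 (ENSG00000181163), on the forward strand of chromosome 5 from 171387116 to 171411810 (hg38), had 2204 and 2224 CPM with DMSO and 1309 and 1294 CPM with dBET1. The replicates differed by little, and the fall was one of the smaller ones, with a log2 fold change of -0.77 ± 0.0637 (edgeR, adjusted p = 5.66e-05). NCL, which encodes the other very abundant nucleolar protein nucleolin, had 1533 and 1548 CPM with DMSO and 585 and 571 CPM with dBET1, a log2 fold change of -1.41. Together NPM1 and NCL went from 3737 and 3773 CPM to 1894 and 1865 CPM.

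LYAR, a nucleolar zinc finger protein, had the largest fall of this role. Its level was 182 and 216 CPM with DMSO and 52.9 and 51.8 CPM with dBET1, a log2 fold change of -1.93 ± 0.100 (edgeR, adjusted p = 1.18e-05). PA2G4, also known as EBP1, had the smallest p of the 60 genes. It had 896 and 922 CPM with DMSO and 290 and 278 CPM with dBET1, a log2 fold change of -1.68 (adjusted p = 6.88e-06 from edgeR). MYBBP1A, a nucleolar MYB-binding protein, had a log2 fold change of -1.58, NOLC1, a chaperone of snoRNPs, of -1.51, TCOF1, whose protein treacle is altered in Treacher Collins syndrome, of -1.40, and the helicase gene DDX21 of -1.30. DDX21 was the most uneven of these in the controls, with 914 and 749 CPM.

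Of the proteins that act directly on the ribosomal DNA, UBTF binds along the ribosomal DNA and RRN3 carries RNA polymerase I to its promoter. UBTF had 211 and 222 CPM with DMSO and 162 and 157 CPM with dBET1, a log2 fold change of -0.44 ± 0.0729 (edgeR, adjusted p = 0.00156). RRN3 was the least abundant member in CPM, at 32.4 and 25.3 with DMSO and 18.3 and 17.0 with dBET1, a log2 fold change of -0.71 ± 0.146 (edgeR, adjusted p = 0.00437). The 2 DMSO libraries of RRN3 differed by about as much as the lower of them differed from the higher dBET1 library. Its 3 annotated pseudogenes held 239 and 206 counts with DMSO and 220 and 210 with dBET1, or 22.6% and 29.0% and then 40.1% and 40.4% of the counts of RRN3. How reads that match several copies were counted is not given, so the value of RRN3 is uncertain to that extent.

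Assembly of the 60S subunit was covered by 19 genes, of which 16 fell by more than 2-fold, with a median log2 fold change of -1.29. NOP16 had the largest fall of all 60 genes. NOP16 (ENSG00000048162), on the reverse strand of chromosome 5 from 176383946 to 176388927 (hg38), had 175 and 199 CPM with DMSO and 50.8 and 42.5 CPM with dBET1. Its log2 fold change was -2.01 ± 0.112 (edgeR, adjusted p = 1.33e-05), a level 0.249 times that with DMSO. EBNA1BP2, an assembly factor of early 60S particles, had 266 and 304 CPM with DMSO and 86.1 and 89.6 CPM with dBET1, a log2 fold change of -1.70. MRTO4, which holds the place of the ribosomal stalk during assembly, and PPAN, which takes part in processing of large-subunit RNA, had nearly the same value, -1.68 and -1.67.

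The PeBoW complex of PES1, BOP1 and WDR12 is needed for maturation of the large-subunit RNA, and its 3 genes all fell by more than 2-fold. BOP1 had the highest level per kb of exon in this role, 147 CPM per kb with DMSO and 67.5 with dBET1. PES1 had 258 and 288 CPM with DMSO and 95.5 and 91.2 CPM with dBET1, a log2 fold change of -1.55 ± 0.0839. BOP1 had 502 and 624 CPM with DMSO and 257 and 262 CPM with dBET1, a log2 fold change of -1.12 ± 0.105. WDR12 had 116 and 111 CPM with DMSO and 54.3 and 50.7 CPM with dBET1, a log2 fold change of -1.11 ± 0.0836. PES1 had the lowest value of the 3, and differences between the genes were not tested.

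Among the other 60S genes, the GTPase gene GNL3 (nucleostemin) had a log2 fold change of -1.42, the helicase gene DDX18 of -1.33, and the RNA methyltransferase gene NOP2 of -1.29. NIP7 reached -1.53, NOC2L -1.36, WDR74 -1.28, NLE1 -1.11, RRP1 -1.09 and NOC3L -1.06. The 3 genes short of the 2-fold limit were RRS1, GRWD1 and GNL2. RRS1, which helps to bring the small ribosomal RNA of the large subunit into the particle, was just short of it, with 97.6 and 104 CPM against 51.9 and 48.8 CPM (log2 fold change -0.998). GRWD1, a chaperone of a ribosomal protein, had 194 and 208 CPM with DMSO and 102 and 107 CPM with dBET1 (log2 fold change -0.94). GNL2, another nucleolar GTPase, had 204 and 205 CPM with DMSO and 116 and 122 CPM with dBET1 (log2 fold change -0.78 ± 0.0731).

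**Figure D3:**
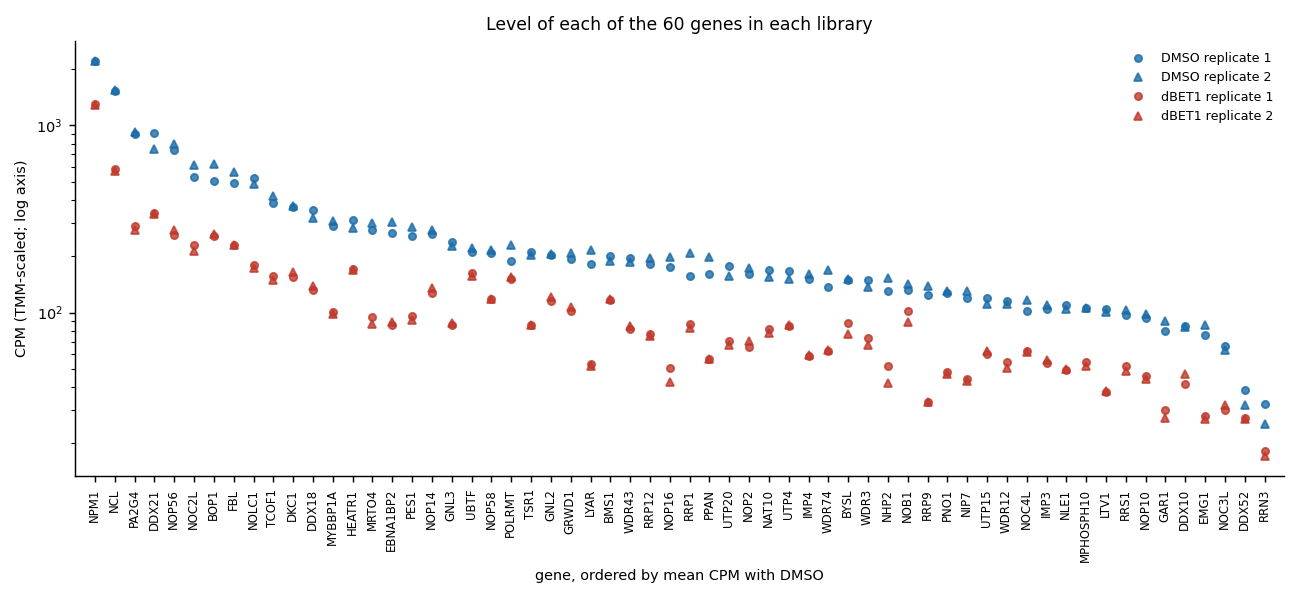
Level of each gene in each of the 4 libraries (vertical axis, CPM on a log axis; horizontal axis, the 60 genes ordered by mean level with DMSO). Blue symbols are DMSO and red symbols dBET1, with circles for replicate 1 and triangles for replicate 2. For every gene both red symbols lie below both blue ones, from NPM1 (2204 and 2224 against 1309 and 1294) down to RRN3 (32.4 and 25.3 against 18.3 and 17.0). The same order held for 37.4% of all genes tested.

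The small subunit processome, the large particle that forms on the nascent precursor, was represented by 17 genes. All 17 fell, 8 of them by more than 2-fold, with a median log2 fold change of -0.99. RRP9, a protein of the U3 snoRNP, had the largest fall of these. It had the highest level per kb of exon of the role with DMSO, 85.1 CPM per kb, and 21.6 with dBET1. RRP9 (ENSG00000114767), on the reverse strand of chromosome 3 from 51933429 to 51941904 (hg38), had 124 and 139 CPM with DMSO and 33.4 and 33.3 CPM with dBET1. Its log2 fold change was -1.98 ± 0.0925 (edgeR, adjusted p = 8.74e-06), the second lowest of the 60 genes. EMG1, a methyltransferase of small-subunit RNA, had 75.9 and 86.3 CPM with DMSO and 28.2 and 27.0 CPM with dBET1, a log2 fold change of -1.55.

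The 3 proteins IMP3, IMP4 and MPHOSPH10 form a complex that joins U3 RNA to the precursor. IMP4 had 152 and 160 CPM with DMSO and 58.7 and 59.3 CPM with dBET1, a log2 fold change of -1.40 ± 0.0784. MPHOSPH10 (-0.99 ± 0.0816) and IMP3 (-0.97 ± 0.0831) fell less. The genes of the first complex to bind the precursor, UTP4, UTP15, WDR43 and HEATR1, had log2 fold changes of -0.90, -0.92, -1.20 and -0.81. NOP14 and NOC4L, which bind each other, had -1.03 and -0.82. UTP20 was at -1.28, WDR3 at -1.03, DDX10 at -0.92 and NAT10, an RNA acetyltransferase, at -1.02.

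The smallest falls of this role were those of BMS1 and DDX52. BMS1, a GTPase of the processome, had 202 and 188 CPM with DMSO and 117 and 118 CPM with dBET1, a log2 fold change of -0.73 ± 0.0756. Its 17 counted pseudogenes summed to 1178 and 926 counts with DMSO and to 1340 and 1402 with dBET1, or 17.9% and 17.5% and then 38.1% and 38.8% of the counts of BMS1, and reads shared with them were not resolved. DDX52, a helicase gene of low level, had 38.5 and 32.3 CPM with DMSO and 27.3 and 26.9 CPM with dBET1. Its log2 fold change was -0.39 ± 0.118 (edgeR, adjusted p = 0.0241). This was the least certain of the 60 calls, since DDX52 was not called without DMSO replicate 1 (-0.28, adjusted p = 0.05, at the threshold), without dBET1 replicate 1 (-0.40, adjusted p = 0.110) or without dBET1 replicate 2 (-0.39, adjusted p = 0.110).

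Late maturation of the 40S subunit, from export to the last cut of its RNA, was covered by 6 genes, of which 4 fell by more than 2-fold. LTV1 had 104 and 101 CPM with DMSO and 37.5 and 37.9 CPM with dBET1, a log2 fold change of -1.45 ± 0.0826. PNO1 had 128 and 130 CPM with DMSO and 48.1 and 47.2 CPM with dBET1, a log2 fold change of -1.44. RRP12, an export factor, was at -1.31, and TSR1, a GTPase-like factor, at -1.27. BYSL had the highest level per kb of exon of these, 77.8 CPM per kb with DMSO and 42.5 with dBET1, and a log2 fold change of -0.87, with 150 and 151 CPM against 87.5 and 77.2 CPM. NOB1, the nuclease that makes the last cut and the partner of PNO1, had 133 and 143 CPM with DMSO and 102 and 88.6 CPM with dBET1. Its log2 fold change of -0.53 ± 0.0925 (edgeR, adjusted p = 0.00195) was the smallest of this role. Both dBET1 libraries of NOB1 lay below both DMSO libraries, as for 37.4% of all genes tested.

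POLRMT is the RNA polymerase of mitochondria and stands apart from the nucleolar genes by function. It had 189 and 230 CPM with DMSO and 150 and 155 CPM with dBET1, a log2 fold change of -0.46 ± 0.101 (edgeR, adjusted p = 0.00599). Only UBTF and DDX52 had smaller falls among the 60.

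Other genes of the pathway, 124 in 6 lists, were read in the same fit. At an adjusted p under 0.05, 111 (89.5%) were lower and 1 was higher, with a median log2 fold change of -0.78. By the same rule 27.6% of all genes tested were lower and 28.0% were higher, and 8.54% were lower by more than 2-fold. In the decile of highest level 62.2% of the genes were lower, and in the next decile 54.1%. Of 32 other processome genes 31 were lower, 15 by more than 2-fold, from UTP18 at -1.58 to FCF1, which did not pass the test (-0.11, adjusted p = 0.334). Of 8 other late 40S genes 6 were lower, from BUD23, a methyltransferase, at -1.54 to the kinase gene RIOK3 at 0.091 (adjusted p = 0.438). Of 47 other 60S genes 43 were lower, from RPF2 at -1.88, and NOP53 alone was higher. NOP53 had 200 and 257 CPM with DMSO and 442 and 418 CPM with dBET1, a log2 fold change of 0.91 ± 0.115 (edgeR, adjusted p = 0.000401).

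Of RNA polymerase I and its factors, 9 of 13 genes (69.2%) were lower and 4 were not called. Over all genes tested 27.6% were lower by the same rule. That share was 62.2%, 54.1% and 44.2% in the 3 deciles of highest level, and whether the 13 genes differ from it was not tested. The lowest was POLR1H at -2.88, a gene of low level with 10.1 and 9.89 CPM with DMSO and 1.10 and 1.61 CPM with dBET1 (edgeR, adjusted p = 6.78e-05). The highest was TAF1B at 0.21 (adjusted p = 0.239). Of 14 genes of the RNA exosome, which trims the precursor, 13 were lower, from EXOSC5 at -1.56 to EXOSC6, which did not pass the test (0.087, adjusted p = 0.511). Of 10 snoRNP assembly factors 9 were lower, from RUVBL2 at -1.58 to PIH1D1, not called, at -0.11 (adjusted p = 0.361).

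The cytosolic ribosomal protein genes encode the components that these factors assemble. Of 78 such genes, 15 (19.2%) were lower, 9 were higher and 54 were not called, with a median log2 fold change of -0.064. By the same rule 27.6% of all genes tested were lower and 28.0% were higher. In the decile of highest level, which held all of the 78 but RPS9, 62.2% of the genes were lower. Among the 78, the lowest was RPS26 at -1.26 and the highest RPL13A at 0.59. Their summed level was 80614 and 93703 CPM with DMSO and 88301 and 86956 CPM with dBET1, so the treated libraries lay within the range of the controls. These counts depended on single libraries and on the scaling. Without DMSO replicate 1, 47 of the 78 were lower, without dBET1 replicate 1, 9 were, and with library totals 28 were higher and 7 lower. The difference between these genes and the 60 biogenesis genes was not tested as such.

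**Figure D4:**
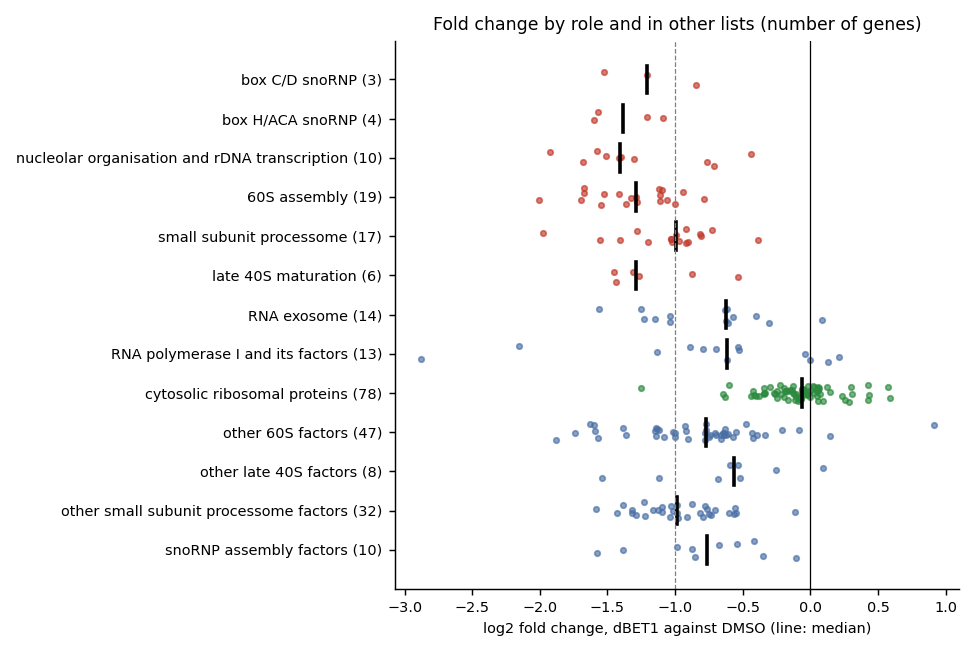
Log2 fold change, dBET1 against DMSO (horizontal axis), of the genes of each role and of other lists (rows, with the number of genes); each point is 1 gene and the black line is the median. Red rows are 59 of the 60 genes described here, without POLRMT, with medians from -1.41 to -0.99, blue rows are other pathway genes, and the green row is the 78 ribosomal protein genes, with a median of -0.064.

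**Figure D5:**
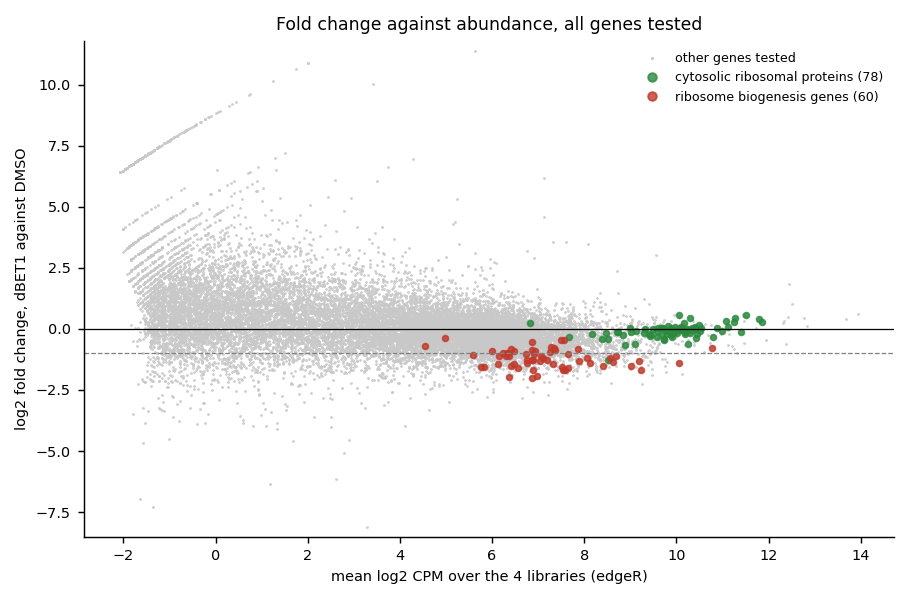
Log2 fold change (vertical axis) against mean level over the 4 libraries (horizontal axis, log2 CPM) for all 17971 genes tested; red points are the 60 biogenesis genes, green points the 78 cytosolic ribosomal protein genes and grey points the others. The red points lie below 0 throughout, while the green points, at higher levels, lie on both sides of 0.

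Some values may share reads with neighbours, which was judged from annotated exons only. Exons of 29 of the 60 genes overlap exons of another counted gene other than a snoRNA, and those of 33 do when snoRNA genes are included. The snoRNA genes take up at most 8.20% of the exon bases of a host, while in 16 of the 29 the overlap reaches 10% of the exon bases or more. Without these 16, all of the other 44 were still lower, 28 by more than 2-fold, with a median log2 fold change of -1.16. EMG1 shares 55.5% of its exon bases with LPCAT3 on the opposite strand, which had 959 and 669 counts with DMSO and 1223 and 1099 with dBET1. PPAN shares 47.6% with the readthrough gene PPAN-P2RY11, which was at 0 counts in each control library and at 18 and 461 after dBET1. P2RY11, whose exons also overlap those of PPAN, had 363 and 425 counts with DMSO and 335 and 156 with dBET1. PPAN itself had 162 and 197 CPM with DMSO and 56.2 and 56.3 CPM with dBET1. How reads were divided among these genes is not given, so the value of PPAN is uncertain to that extent.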

How the data were processed

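RNA of 4 libraries was sequenced as paired-end reads. The authors aligned the reads to hg38 (Ensembl) with HISAT2 2.2.0, estimated abundances with StringTie and deposited the result as raw counts of each gene. How abundances became counts and the strand setting are not given in the sources used here, so overlapping and near-identical genes can share counts. The control columns are named NC and were matched to the DMSO libraries, the one other group of the labels, with their replicate numbers. All sample columns were used, and 0 rows lacked a gene. Symbols, exons and coordinates came from GENCODE release 44 on hg38, which held 56105 of the 64252 identifiers.

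Counts were tested with edgeR 4.0.16 in R 4.3.3 (filterByExpr, TMM, quasi-likelihood test on the group, Benjamini-Hochberg over 17971 genes). The standard error was the log2 fold change divided by the root of F. The adjusted p threshold of 0.05 and log2 limit of 1 follow the paper's methods. Replicates differed by more than sampling noise (chi-square per degree of freedom 23.6 for DMSO and 8.14 for dBET1). The biological coefficient of variation was 0.123. Levels per kb used the union of annotated exons.

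The members and lists were chosen with earlier results of these data known. Per role, the text gives every library for the member highest per kb, lowest and highest in log2 fold change, for the 2 lowest and 2 highest in the large roles, and for any member not lower, and of other lists the lowest and highest gene and any of 5 or fewer higher genes. Other members given by library were chosen after their values were seen. Beside the markers named in the text, 2 further ones are not reported here, for reasons that do not concern their values. The fit was tested on simulated data with known changes, of which it called 65.4% at a log2 size of 1 and 89.1% at 2. Few genes changed in them, as many up as down, so the simulation does not test the scaling. Alternatives were DESeq2 1.42.0, its size factors, total counts, other count filters, counts divided by 2, a replicate block and each library left out.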

Additional observations from a re-analysis of the deposited data

How the results depend on the processing

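All 60 genes had a negative log2 fold change under each of the 11 alternatives, 660 values in all. For 6 of these the adjusted p was not under 0.05, namely for 5 values of DDX52, including that with no count filter (-0.44, adjusted p = 0.0593), and 1 of POLRMT. Per alternative, the number lower was 58 to 60 and the number past the 2-fold limit 29 to 44, against 41. The members' median was -0.996 with total counts only and -1.14 with at least 10 counts in every library, and between -1.26 and -1.19 when any 1 library was removed. With the replicate block, 60 genes were lower, 41 by more than 2-fold. The labels do not say that same-numbered libraries are paired, so the numbers were not taken to pair them. Deviations of same-numbered libraries had a correlation of 0.0023 over genes, which with 2 libraries a group does not settle it. With total counts only, 1 other late 40S gene, 2 other 60S genes, 2 RNA polymerase I genes and 1 exosome gene were higher. With at least 10 counts in every library 1 RNA polymerase I gene was higher, and across the fits without 1 library 0 to 1 exosome genes were, the 1 without DMSO replicate 2. Of the ribosomal protein genes, 7 were lower and 28 higher with total counts only, and 5 higher with no count filter. Across the fits without 1 library 9 to 47 were lower and 4 to 19 higher, the 4 without dBET1 replicate 1, 5 without dBET1 replicate 2 and the 19 without DMSO replicate 2. The causes were not tested. With 2 libraries a group, SDs rest on 2 values, and a lone library left in a group is assumed to vary like the others.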

Other observations

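The loci of 8 of the 60 genes, NOP56, NOP58, DKC1, NCL, GNL3, PPAN, WDR43 and TSR1, carry 26 counted snoRNA genes on the same strand. These small RNAs were nearly absent from the libraries, with 0 to 10 counts each and sums of 80 and 62 counts with DMSO and 54 and 58 with dBET1. None of the 26 passed the count filter, so the libraries give no test of the guide RNAs beside their host genes.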
